A study of Mus musculus with 2 samples.

Results

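The genes described here are the 83 mouse genes for proteins of the cytoplasmic ribosome, 51 for the large subunit and 32 for the small subunit, among 31053 genes counted. They were chosen by symbol alone: Rpl or Rps followed by a number and at most a short suffix, plus Rplp0, Rplp1, Rplp2 and Rpsa, with names marked as pseudogenes left out. The cells came from the cervix below the transition zone of ovariectomised mice on a C57BL6/129 background, 7 to 8 weeks old at surgery, with 2 weeks of recovery and a further period of 15 days. Control mice were given nothing. Progesterone mice were first given 2 days of estradiol (E2) at 100 µg per day. A pellet with 25 mg of progesterone followed, made to release its content over 21 days, about 1 mg per day. Both groups therefore lacked ovaries, and the treated group differed from the control in both hormones. Each group was 9 mice pooled into 1 library of single-cell RNA made from transcript 3′ ends, and the labels do not tie cells to mice. With 1 library a group there is no replicate check and no test: the differences below are between these libraries, and intervals in brackets cover counting error only.

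A ribosome joins a large subunit, which forms peptide bonds, to a small subunit, which reads the mRNA, and each of its proteins is normally present in 1 copy per particle except the stalk proteins Rplp1 and Rplp2. Ribosomal protein mRNAs are among the most abundant in growing cells. Most begin at a C followed by a run of pyrimidines (C or T in the DNA), the terminal oligopyrimidine or TOP motif, through which their translation follows nutrient and growth signals acting through mTOR. mRNAs of several translation factors carry the same motif. In the cervix, basal and suprabasal squamous cells form a stratified lining, and luminal mucous cells secrete mucins such as Muc5b. Olfm4, a secreted glycoprotein, marks subsets of secretory and progenitor cells in mucosal epithelia.

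The starts of 5 members that recur below, and of Rps9, show how this motif varies. RefSeq gives a start for 63 of the 83 members on GRCm38.p6. Each line is the 30 bases from 10 before the annotated start to 20 after it, 5′ to 3′ on the gene's strand, with the longest run of C and T near the start in capitals. The positions are Rps27 chr3:90213629-90213658 (minus strand), Rps24 chr14:24490668-24490697 (plus), Rpl39 chrX:37085203-37085232 (minus), Rps28 chr17:33824543-33824572 (minus), Rpl13a chr7:45128726-45128755 (minus) and Rps9 chr7:3704031-3704060 (plus).
Rps27: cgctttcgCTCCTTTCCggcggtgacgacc
Rps24: gctggggTCCTTCCTTgcgcgttgatatga
Rpl39: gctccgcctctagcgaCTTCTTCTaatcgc
Rps28: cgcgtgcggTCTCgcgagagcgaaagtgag
Rpl13a: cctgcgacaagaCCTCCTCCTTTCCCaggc
Rps9: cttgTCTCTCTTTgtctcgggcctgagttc
Rps27, Rps24 and Rps9 have runs of 9, Rpl39 a run of 8 and Rpl13a a run of 14, whereas the longest run of Rps28 has 4 letters. Rps19 and Rpl7l1, also named below but not printed here, have longest runs of 4 and 2. Rps24 has 2 listed starts and Rps19 has 3, of which the first was used. A run of 8 or more letters, each C or T, touching the 10 bases either side of the start was present in 27 of 63 members (42.9%), against 3651 of 27025 genes in the same table (13.5%). On the other strand, where the run reads as A and G, it was present in 3 members (4.76%) and 3985 genes (14.7%). Annotated starts can lie a few bases from those used in these cells, and a match is a description of letters only.

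The files held 5368 control and 10853 progesterone barcodes, of which 4579 and 8541 were analysed, with medians of 3733 and 4151 UMIs (unique molecular identifiers, each counting 1 captured transcript). The libraries share 19 barcodes, 12 of them among the analysed cells. In each library 81 of the 83 members were detected, and 80 had at least 1000 UMIs in all. The testis-type paralogs Rpl10l and Rpl39l had none, and Rpl3l, the striated muscle paralog of Rpl3, had 16. Among the members with the highest level in the control library were Rpl13 at 7872 counts in 1000000 UMIs (CPM), Rpsa at 7007, Rps12 at 6860 and Rpl8 at 6470. In the progesterone library they included Rpl13 at 10480.5 CPM, Rplp1 at 8366, Rps18 at 7545 and Rps12 at 7376. Every transcript gives 1 tag at its 3′ end, so these levels need no correction for length, but many members have near-identical processed copies in the genome, and the level of a single member is uncertain to that extent.

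Ribosomal proteins whose symbols fall outside the rule were just as easy to detect. Fau, made as a ubiquitin-like fusion with Rps30, stood at 4664 CPM in control and 4920 in progesterone. Rack1, a scaffold on the small subunit, stood at 3107 and 3365, and Rpl36al at 588 and 578. The largest pseudogene-named row was Rps12-ps3, at 130 and 143 CPM.

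The 83 members took 28.1% of all UMIs in the control library and 32.8% in the progesterone library. Cell classes were named from fixed marker genes after clustering without the ribosomal protein genes, and the share differed more between classes than between libraries. In basal squamous-like cells (Krt5, Krt14, Trp63) it was 30.2% in control (30.16 to 30.23, 1442 cells) and 38.2% in progesterone (38.19 to 38.24, 4123 cells). In suprabasal squamous-like cells (Krt10, Krt13, Krtdap) it was 27.2% over 434 cells and 36.1% over 988 cells. The 10 suprabasal markers took 1.88 and 0.712% of their UMIs, against 0.288 and 0.0717% in basal cells, with Sprr1b at 0 in progesterone. The 8 basal squamous markers took more, 6.03 and 1.64%, which is also above the 3.26 and 1.32% in basal cells. Krt5 alone stood at 7476 and 5444 CPM in suprabasal-like cells, against 6139 and 2971 in basal cells. The basal markers were thus not lower in the class named suprabasal, and the suprabasal markers set the classes apart. In cluster 0 alone, with 76 control and 986 progesterone cells, the suprabasal difference was 5.13 points in place of 8.92. Allowing the members into the clustering gave 3.86 for the class. The spread over single cells was far wider than the counting interval, with quartiles of 27.7 to 34.6% in control basal cells and 32.7 to 43.0% in progesterone basal cells.

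Luminal-like cells (Krt8, Krt18, Cldn3) had lower shares, 15.0% over 312 control cells and 23.6% over 2030 progesterone cells. Most were mucous-like, meaning clusters with Muc5b, Agr2 and Tff1 all above their median over clusters when both libraries were summed. There the share was 19.1% (227 cells) and 24.0% (2013 cells). The other luminal-like cells formed cluster 22, led by Psca, Sprr2d and Lcn2, with 9.75% in 85 control cells and 8.12% in 17 progesterone cells. That cluster held 85 of 312 luminal-like cells in control and 17 of 2030 in progesterone, so the luminal-like difference of 8.61 points stood beside one of 4.91 points among mucous-like cells. The mucous-like comparison is also between differing clusters. Control cells came mainly from clusters 16 (125 cells) and 11 (95), progesterone cells from clusters 20 (741) and 21 (989). In cluster 11, found in both, the share was 24.1% in control and 33.6% in progesterone. Its control cells had Muc5b at 5.28 CPM, against 1782 in its progesterone cells. With each library clustered apart, the luminal-like difference was 1.58 points.

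Neutrophil-like cells (S100a8, S100a9, Retnlg) had the lowest share of the named classes with at least 50 cells of each library, 5.41% in 326 control cells and 9.04% in 441 progesterone cells. Their median cell held 3.41% and 5.34%, below the summed share, and the 95th percentile 16.1% and 15.1%. Macrophage-like cells (C1qa, Csf1r) held 20.7% and 31.7%, and fibroblast-like cells (Dcn, Col3a1) 20.9% and 29.1%. The macrophage-like difference lay in cluster 17, at 20.5 and 32.8%, while the smaller cluster 25 held 21.7% in 45 control and 21.4% in 46 progesterone cells. Fibroblast-like cluster 23 held 20.9 and 26.6%, and cluster 24 had 16 progesterone cells at 35.5% and 0 control cells. The 8 basal squamous markers took 0.157% of control and 0.755% of progesterone macrophage-like UMIs, and 0.117% and 0.273% of fibroblast-like UMIs; in neutrophil-like cells they took 0.243% and 0.204%. All 8 were detected in the macrophage-like and neutrophil-like cells of both libraries, while Trp63, Col17a1, Itgb4 and Lamb3 were at 0 in control fibroblast-like cells. Erythrocyte genes took 0.00481 and 0.159% of macrophage-like, 0.00558 and 0.619% of fibroblast-like and 0.125 and 0.0388% of neutrophil-like UMIs. The 5 mucous markers took 0.00177 and 0.0326%, 0.0123 and 0.0199%, and 0.00443 and 0.0769% in the same order. The part of these transcripts in the share was not tested. Blood endothelium-like cells had a lower summed share in progesterone, 21.4% (46 cells) and 19.6% (62 cells), but a higher median cell, 16.2 and 18.4%, with Krt5 at 1732 CPM in control and 62.7 in progesterone. Erythrocyte-like cells had summed shares of 22.2% (31 cells) and 18.5% (142 cells) and median cells of 17.96 and 18.35%, with Krt5 at 3032 and 1294 CPM.

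**Figure D1:**
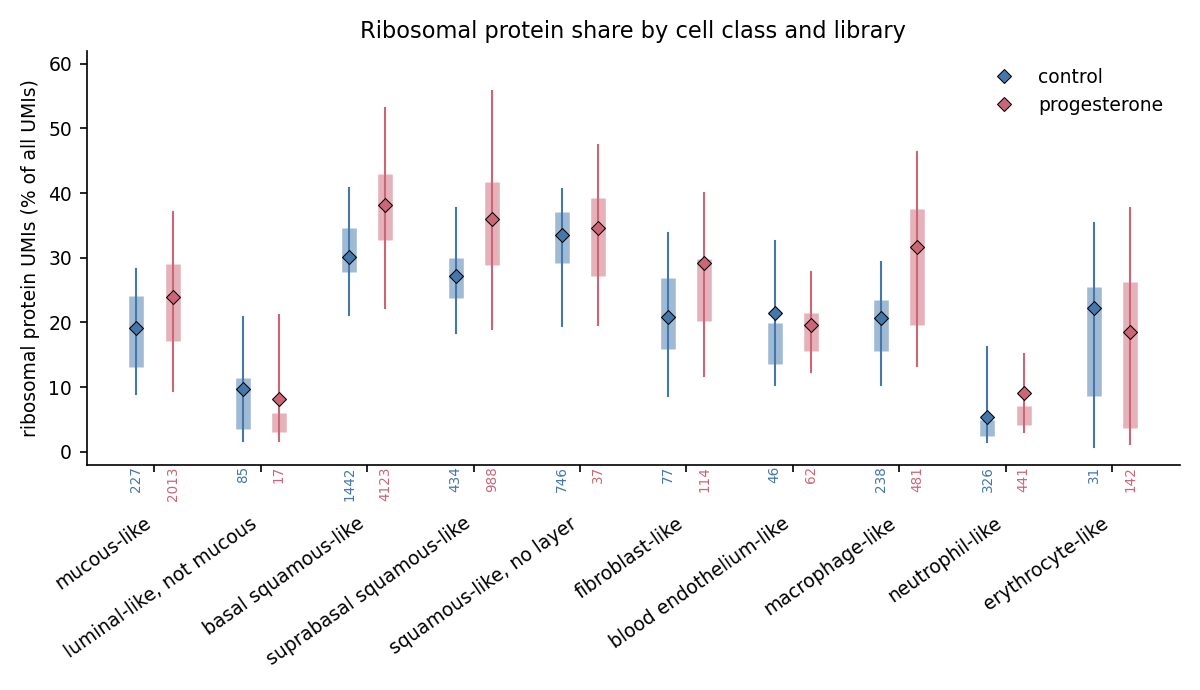
Ribosomal protein share of UMIs (vertical axis, percent) by cell class (horizontal axis), control in blue and progesterone in red. Diamonds are the share of summed UMIs, thick bars the quartiles and thin lines the 5th to 95th percentile over cells, with cell numbers under the axis; basal squamous-like cells go from 30.2 to 38.2% and neutrophil-like cells, at 5.41 and 9.04%, are lowest among classes with at least 50 cells of each library.

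All 11 clusters with at least 50 cells of each library had a higher share in the progesterone library. The differences ran from 2.75 points in cluster 13, dividing basal cells led by Cenpf and Ube2c, to 12.4 points in the macrophage-like cluster 17, with a median of 5.70. Within basal squamous-like cells, the share went from 34.1 to 43.8% in cluster 8 and from 33.0 to 38.7% in cluster 9. It went from 33.5 to 37.9% in cluster 6 and from 29.9 to 36.2% in cluster 1. Clusters with fewer cells of one library did not all follow: cluster 5, which stayed unnamed, held 28.1% in 657 control cells and 21.9% in 43 progesterone cells. Its control cells had Krt5 at 1908, Krt8 at 128 and Krt18 at 321 CPM, against 1676, 1907 and 1980 in control luminal-like cells. The unnamed clusters together, cluster 5 among them, held 28.0% in 925 control and 23.3% in 108 progesterone cells. Of these clusters only cluster 5 was lower in progesterone. Cluster 3 held 28.6% in 213 control and 33.9% in 7 progesterone cells. Cluster 18 held 9.07 and 14.8% (17 and 22 cells), and cluster 19 held 21.4 and 31.5% (38 and 36 cells). Suprabasal squamous-like cells came mainly from cluster 15 in control (358 of 434 cells) and from cluster 0 in progesterone (986 of 988). That comparison is thus between differing clusters. In cluster 0 alone the share was 30.9% in 76 control cells and 36.1% in progesterone, the difference of 5.13 points given above. Mitochondrial transcripts were 5.58% of UMIs in the control and 6.79% in the progesterone library, and cells left out by the filters held 17.2 and 20.4% ribosomal protein UMIs. The balance of the subunits was steady: small subunit genes made up 45.7% of ribosomal protein UMIs in control and 46.3% in progesterone.

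Per gene, the same shift was spread over most members, and Rps27, Rps24, Rpl39 and Rps28 led it in the epithelium. A gene is called here where its CPM differed at least 1.5-fold, among genes with 100 or more UMIs over both sides. The share called over all genes includes the members themselves. In basal squamous-like cells 16 of 80 members compared were called higher in progesterone, beside 15.5% of all 9799 genes compared, and 2 were called lower, Rpl29 and Rpl7l1, beside 16.3%. Their count called higher was thus close to the background, while the median was not at it: the members' median log2 ratio was 0.37 and that of all genes -0.02, and 69 of 80 members were above 0. In suprabasal squamous-like cells 21 of 80 were called higher, beside 32.8%, and 0 lower, beside 12%, with medians of 0.43 for members and 0.28 for all genes. Among mucous-like cells 11 of 80 were called higher, beside 20.1%, and 0 lower, beside 13.4%, with medians of 0.38 and 0.06. The mucous-like and suprabasal cells of the libraries came mainly from differing clusters, as given above. The basal cells differed in their mix of clusters, and counts within single basal clusters are given below.

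In all luminal-like cells 54 of 80 members were called higher, beside 39.2% of genes, and Rpl29 alone was called lower, beside 9.73%; the median was 0.71 against 0.40 for all genes. In mucous-like cells Rpl29 was instead at 0.79, on 11 control UMIs, and cluster 22 held it at 103 CPM in control. That count of 54 includes cluster 22, whose cells were mostly control, against the 11 found without it. Scaling on UMIs other than ribosomal protein and mitochondrial ones moved the median of all genes from 0.40 to 0.61 in luminal-like, from -0.02 to 0.20 in basal and from 0.28 to 0.55 in suprabasal cells, and the members' medians to 0.92, 0.59 and 0.70. On that scale 41 of 80 members were called higher in basal cells, beside 25.5% of all genes, and 55 of 80 in suprabasal cells, beside 47.8%. Members were also called higher outside the epithelium, in classes whose squamous, erythrocyte and mucous transcripts differed between the libraries as given above. In neutrophil-like cells 58 of 74 members were called higher, beside 14.3%, in macrophage-like cells 50 of 79, beside 14.2%, and in fibroblast-like cells 31 of 78, beside 18%. The members were part of those backgrounds, in which 118, 302 and 88 genes were called higher. In these 3 classes 0 members were called lower, beside 11.7, 30.7 and 15.4% of all genes. In single basal clusters fewer members passed: 14 of 79 in cluster 8 (beside 9.88%), 6 of 80 in cluster 9 (8.73%) and 3 of 80 in cluster 6 (9.72%). Called lower were 0 members in cluster 8 (beside 21.1%) and 1, Rpl29, in each of cluster 9 (16.4%) and cluster 6 (15.7%).

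Rps27, a zinc-finger protein of the small subunit, was the member with the highest ratio in luminal-like cells. Its level was 718 CPM in control and 1880 in progesterone luminal-like cells, and 1506 and 2930 in basal cells, log2 ratios of 1.39 and 0.96. Rps24, a small subunit protein needed to mature its rRNA and mutated in Diamond-Blackfan anaemia, stood at 2370 and 5438 CPM in luminal-like cells and at 3943 and 8028 in basal cells, ratios of 1.20 and 1.03. Rpl39, a very short protein lining the exit tunnel for new peptides, stood at 1440 and 2931 CPM in basal cells, a ratio of 1.03. Rps28, which lies near the mRNA exit of the small subunit, stood at 971 and 1800 CPM there, a ratio of 0.89. These 4 genes had the highest ratios in luminal-like, basal and suprabasal squamous-like cells alike, and in suprabasal cells their ratios lay between 0.97 and 1.14. In mucous-like cells they were 1.06 for Rps27, 0.97 for Rps24, 0.87 for Rpl39 and 0.79 for Rps28. These 3 comparisons use the same 2 libraries, so they are not independent of each other.

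At the other end stood Rpl41, the shortest ribosomal protein, Rpl8, Rpl31, which lies at the mouth of the exit tunnel, and Rpsa, the laminin receptor protein of the small subunit. Rpl41 was 6776 CPM in control and 5457 in progesterone basal cells, a log2 ratio of -0.31, and its ratio was -0.29 in suprabasal and 0.10 in luminal-like cells. Rpl8, a core protein of the peptide-forming centre, had ratios of -0.24 in basal, -0.23 in suprabasal (0.04 when scaled without ribosomal protein and mitochondrial UMIs) and 0.17 in luminal-like cells. Rpl31 had -0.20 in basal and suprabasal cells, which that scaling turned to 0.02 and 0.07, and 0.30 in luminal-like cells. Rpsa was at 7740 and 7457 CPM in basal cells, -0.05, with -0.02 in suprabasal and 0.11 in luminal-like cells; in mucous-like cells Rpsa was at -0.31, Rpl41 and Rpl8 at -0.26 and Rpl31 at -0.05. Rpl7l1, a paralog of Rpl7 found in assembling pre-ribosomes, stood at 99.0 and 64.1 CPM in basal cells, a ratio of -0.63, and at -0.47 in suprabasal cells, while Rpl7 itself had 0.08 and 0.13. None of these members apart from Rpl7l1 in basal cells passed 1.5-fold.

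The stalk and fused members were intermediate. Rplp1 had log2 ratios of 0.90 in luminal-like, 0.47 in basal and 0.46 in suprabasal cells, its partner Rplp2 had 0.69, 0.29 and 0.31, and Rplp0, which anchors both to the large subunit, had 0.19, 0.09 and 0.10. Rps6, the phosphorylated protein read as a marker of mTOR signalling, had 0.71, 0.46 and 0.49, and Rps27a, made fused to ubiquitin, had 0.65, 0.23 and 0.38. Among paralog pairs, Rpl22 had 1.10, 0.57 and 0.71 and Rpl22l1 had 0.88, 0.54 and 0.57, whereas Rps27l had 0.76, 0.06 and 0.11 beside its paralog Rps27. Rpl3 stood at 0.94, 0.55 and 0.63, Rpl10 at 0.72, 0.19 and 0.31, and Rps4x at 0.43, 0.30 and 0.37. Rps4l, named in the same rule of paralogs, is not listed among the genes counted. Of the most abundant members, Rpl13 had 0.51 in basal cells, Rps12 0.25 and Rps18 0.65.

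**Figure D2:**
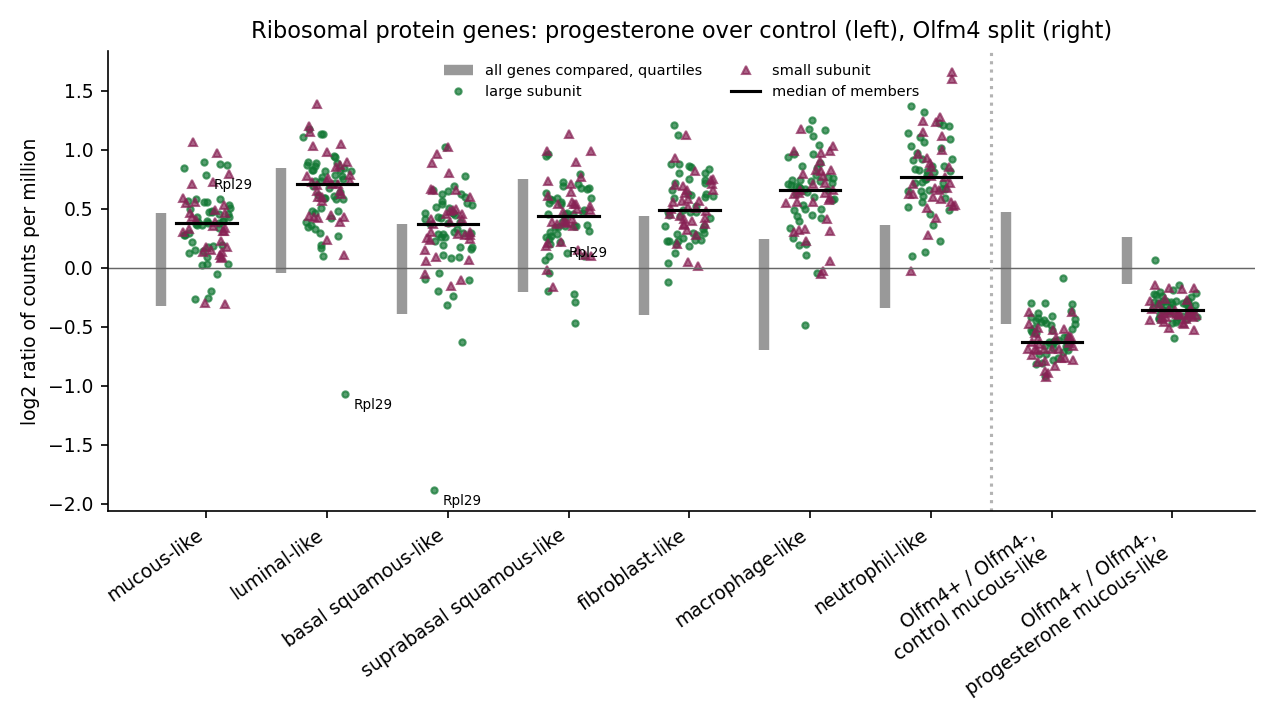
Log2 ratio of CPM (vertical axis) of each member by comparison (horizontal axis): progesterone over control in 7 classes at left, Olfm4-positive over Olfm4-negative mucous-like cells at right. Circles are large and triangles small subunit genes, black lines the members' median and grey bars the quartiles of all genes compared; the members sit mostly above 0 at left and below 0 at right, with Rpl29 apart in luminal-like (-1.07) and basal squamous-like cells (-1.88).

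Other genes of the translation machinery did not all move with the members. The 14 translation factors with TOP-type mRNA had median log2 ratios of 0.21 in basal, 0.62 in suprabasal and 0.57 in luminal-like cells, with 2, 7 and 7 called higher, beside 15.5, 32.8 and 39.2% of all genes, and 0 called lower in each. In mucous-like cells their median was 0.24, with 2 called higher, beside 20.1%. In basal cells the elongation factor Eef1a1 stood at 0.64 and Tpt1, a TOP-type growth-linked protein, at 0.88. The 25 ribosome assembly genes, which act in the nucleolus, had a median of -0.49 over all basal cells: 22 of 25 were below 0, 6 were called lower, beside 16.3% of all genes, and 1 higher. Within single basal clusters their median was 0.39 over 9 compared (cluster 8), 0.06 over 24 (cluster 9) and -0.27 over 24 (cluster 6), so the value over all basal cells did not hold in each. Bysl, needed for the small subunit, stood at -1.63, Bop1, needed for the large one, at -1.47, and Myc, which drives transcription of many of these genes, at 0.70. Their median was -0.24 in suprabasal cells (0.03 when scaled without ribosomal protein and mitochondrial UMIs) and -0.11 in mucous-like cells, but 0.50 in all luminal-like cells, where 20 of 24 were above 0. Of those 24, 9 were called higher, beside 39.2%, and 1 lower. Mitochondrial ribosomal protein genes, whose products serve another ribosome, had a median of -0.47 over the 77 compared in basal cells, with 27 called lower, beside 16.3%, and 0 higher. Their median was 0.11 in cluster 8, -0.10 in cluster 9 and -0.23 in cluster 6. It was -0.21 over 76 in mucous-like cells but 0.32 over 76 in all luminal-like cells, with 17 called higher, beside 39.2%, and 0 lower.

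In basal cells all 12 cell cycle genes were also called lower in the progesterone library, beside 16.3% of all genes, with a median log2 ratio of -1.46. The dividing basal clusters held 186 control and 170 progesterone cells (cluster 12) and 69 and 55 (cluster 13), of 1442 and 4123 basal cells. Mucous genes also took more UMIs of progesterone basal cells, 0.112% against 0.0368%. The 10 stress genes had 7 of 8 called lower in luminal-like cells, beside 9.73% of all genes, with a median of -1.66; in mucous-like cells, without cluster 22, 2 of 5 were called lower, beside 13.4%, with a median of -0.51. Their part in the members' ratios was not tested.

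Within the mucous-like cells, those with Olfm4 gave a smaller share of their UMIs to ribosomal proteins than those without. Each cell was thinned to 2000 UMIs, since a deeper cell shows an Olfm4 UMI more readily, and cells with fewer were left out (342 in progesterone, 77 in control). In the progesterone library 815 Olfm4-positive cells held 19.9% (19.80 to 19.92) and 856 Olfm4-negative cells 25.2% (25.14 to 25.27), a difference of -5.34 points. Single cells had medians of 19.9 and 24.9% and upper quartiles of 25.0 and 30.3%, so the cells overlap widely. In the control library 91 positive cells held 15.8% and 59 negative cells 23.8%, a difference of -8.01 points. Of these control cells, 11 positive and 25 negative ones were from cluster 11, where Agr2 and Tff1 stood at 0 CPM. Both libraries thus show the lower share in Olfm4-positive cells.

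The share also went down over bins of Olfm4. With 0, 1 to 2, 3 to 5 and 6 or more Olfm4 UMIs, control cells held 23.8, 18.7, 15.5 and 12.5%. In progesterone cells the same bins held 25.2, 20.4, 20.2 and 19.3%, so most of the difference lay between none and 1 to 2. Within single clusters the gap was smaller in progesterone: in cluster 20, rich in Muc5b, it was 22.5% in 189 positive and 26.3% in 530 negative cells, and in cluster 21, rich in Clca1 and Gp2, 18.9% in 619 and 21.7% in 256. In the control cluster 16, 79 positive cells held 14.5% and 30 negative cells 21.6%. Cluster 11 had too few cells of sufficient depth for a split in control (11 positive at 25.4%, 25 negative at 26.0%), and the 39 progesterone cells of cluster 27 had no Olfm4 UMI at 25.4%.

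**Figure D3:**
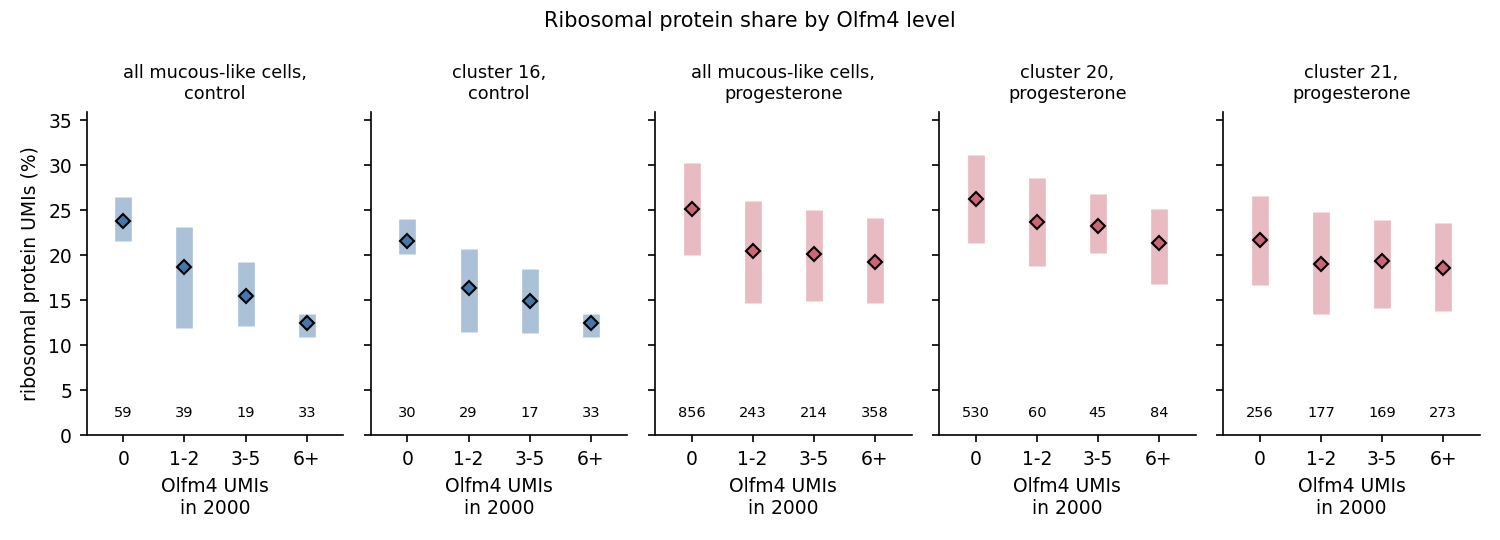
Ribosomal protein share (vertical axis, percent of UMIs) by Olfm4 UMIs among 2000 in the cell (horizontal axis), for mucous-like cells of each library and for 3 clusters. Diamonds are the share of summed UMIs, bars the quartiles over cells and numbers the cells in the bin; control cells step down from 23.8 to 12.5%, while progesterone cells go from 25.2 to 20.4% at the first step and then to 19.3%.

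Other features of the cells moved with Olfm4. In the progesterone library the 12 mucous genes took 4.22% of UMIs in Olfm4-positive and 2.85% in Olfm4-negative cells, and Clca1, a secreted regulator of mucus, stood at 8467 and 2879 CPM. With mitochondrial and mucous genes taken out of the total, the difference in share was -5.47 points, about as large as with them. Mitochondrial transcripts were 8.74 and 8.06% and the cells' median depth before thinning 4820 and 5754 UMIs. Krt5, the basal keratin, stood at 377 and 823 CPM, and the 8 basal squamous markers took 0.0961 and 0.178%. In control cells the mucous genes took 2.58 and 0.747%, with the basal markers at 0.790 and 0.735%, suprabasal markers at 0.959 and 0.382%, luminal markers at 1.43 and 0.918% and neutrophil markers at 0.0500 and 0.0161%. The part of these features in the difference was not tested.

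Over the 1671 progesterone mucous-like cells, which come from 1 library and 1 depth, the share had Pearson r of -0.26 and Spearman rho of -0.34 with Olfm4 UMIs. It had r of -0.40 with Muc5b, -0.44 with Clca1, -0.62 with the mitochondrial share and 0.41 with the cell's depth before thinning. Olfm4 was thus one of several measures that went with the share, and not the closest. Shares taken from 1 total are tied to each other, and these values are descriptions. In the progesterone library 70 of 3404 basal squamous-like cells also had an Olfm4 UMI, against 815 of 1671 mucous-like cells. Those 70 had a median depth of 3790 UMIs and a share of 33.9%, and the other basal cells 4721 and 37.4%. Muc5b stood at 350 and 55.5 CPM, Agr2 at 143 and 26.1 and Tff1 at 279 and 43.9, in the same order. The source of the Olfm4 UMIs in basal cells was not tested.

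Nearly every member was lower in Olfm4-positive cells, each by a small amount. In the progesterone library 78 of 79 members compared were below 0, with a median log2 ratio of -0.36 against 0.05 for all genes and a range of -0.60 to 0.07. Only Rpl13a was called, beside 2.7% of 4414 genes called lower, and 0 members were called higher, beside 6.28%. Rpl13a, which in its free form can hold back translation of inflammatory mRNAs, stood at 136 CPM in positive and 205 in negative cells, a ratio of -0.60. Rps19, a gene often mutated in Diamond-Blackfan anaemia, was at -0.51 and Rps18 at -0.48. At the other end Rplp1 was at 7571 and 7224 CPM, a ratio of 0.07 (-0.03 when scaled without ribosomal protein and mitochondrial UMIs), Rps27l and Rpl38 at -0.15 and Rps21 at -0.17. So the stalk protein Rplp1 was level while its partners Rplp2, at -0.31, and Rplp0, at -0.41, were lower. Within cluster 20 no member was called in either direction, 0 of 78, beside 4% of genes higher and 2.34% lower, nor in cluster 21, 0 of 78, beside 4.37% and 1.85%.

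In the control library all 76 members compared were below 0, with a median of -0.63, and 44 were called lower, beside 18.9% of 381 genes, and 0 higher, beside 19.7%. Those 381 genes include the 76 members, which were 44 of the 72 genes called lower. Rplp1 was not level there, at -0.67, and Rpl41 was the nearest to 0, at -0.09. Ribosomal proteins outside the symbol rule did as the members did in the progesterone library, with 4 of 4 below 0 and a median of -0.35, Rack1 being at -0.51. Of the 14 TOP-type translation factors 12 were below 0 with a median of -0.20 and none called, the lowest being the elongation factor subunits Eef1b2 at -0.53 and Eef1g at -0.52. Ribosome assembly genes were split, 6 of 12 below 0, with a median of -0.01, and mitochondrial ribosomal protein genes had a median of -0.12 over 58.

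The make-up of the ribosomal protein pool, meaning each member's share among ribosomal protein UMIs, was much more even than its size. Over 10 classes, 70 of 80 members had an SD of the log2 share under 0.25, with a median SD of 0.146, and 1 had at least 0.5. That 1 was Rpl29, at 1.28. These shares are summed over both libraries, which contribute unequally to the classes. In the control library alone 4 members reached 0.5, Rpl29 at 1.54, Rps9 at 0.67, Rps27l at 0.64 and Rps27 at 0.54, and in the progesterone library alone none did, with Rpl29 at 0.30. Of the 5 members with the largest SD, 3 were among the 5 largest in control alone and 2 in progesterone alone. Rps9, which helps hold the decoding site accurate, came next at 0.47, through neutrophil-like cells: there its share of the pool was higher by 1.48 on the log2 scale (1.84 in control, 1.36 in progesterone), while its level, 4042 CPM, was below the 6513 CPM of basal cells. Thus Rps9 was less reduced than the rest of the pool in neutrophil-like cells. Rps27 was also raised there within the pool, by 0.94, and Rps27a by 0.57. Rpl7l1 had 1.10 on only 22 UMIs.

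Mucous-like cells differed in other members: within the pool Rpl10 stood at 0.59 and Rps27l at 0.47, and Rpsa at -0.50. The luminal-like cells that were not mucous-like had Rplp0 at 0.65, Rpl7 at 0.55, Rpl3 at -0.59 and Rps27l at -0.40. Rplp0, with an SD of 0.36, was lowest in blood endothelium-like cells, at -0.68. Among paralogs, Rpl22l1 was highest in fibroblast-like cells, at 0.65, whereas Rpl22 was even across classes, with an SD of 0.08. Rps6 ranged from -0.32 to 0.25.

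**Figure D4:**
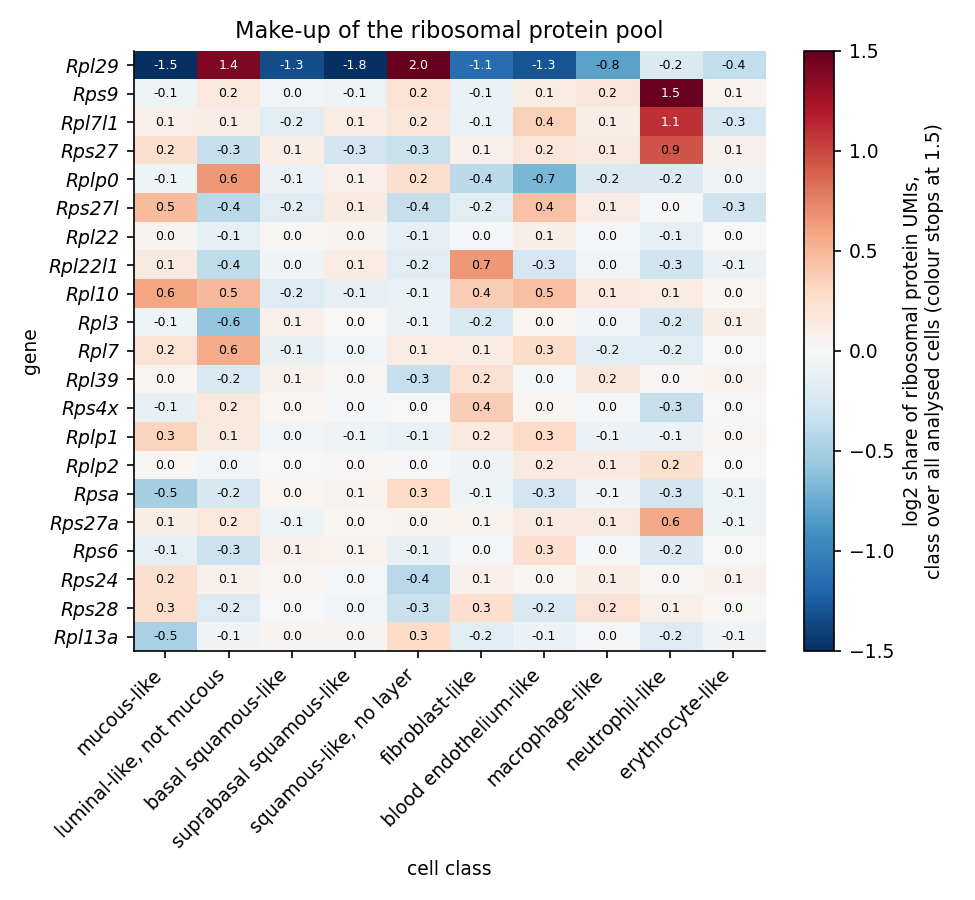
Log2 share of selected members (rows) among ribosomal protein UMIs in each of 10 cell classes (columns), against the same share over all analysed cells; red is higher, blue lower, and the colour stops at 1.5. Most cells of the map are near 0, apart from Rpl29, from Rps9, Rps27 and Rpl7l1 in neutrophil-like cells and from Rplp0 and Rpl3 in luminal-like cells outside the mucous clusters.

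Rpl29, a small basic protein on the surface of the large subunit, also known as a heparin-binding protein, had the widest spread of pool share over both libraries and in control, but not in progesterone alone. It had 4613 UMIs in control and 1005 in progesterone, 229 and 26.4 CPM. Of the control cells 3685 had none, 511 had 1 to 4 and 383 (8.36%) had 5 or more, up to 32. Of the progesterone cells 7609 had none, 932 had 1 to 3 and 0 had 5 or more, which allows a share of up to 0.0351%. Cells with 5 or more were therefore found in the control library alone.

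The control cells with 5 or more Rpl29 UMIs lay mainly in cluster 5 (173 of 657 cells) and cluster 4 (139 of 746), both with Sprr2d and Sprr2f among their leading genes, and 0 lay in clusters 11, 15 and 16. Other genes were compared between those cells and cells with none in the same cluster and library, a comparison chosen after the Rpl29 counts were seen. In cluster 4 the gene 1600014C10Rik had 26 UMIs in the cells with 5 or more Rpl29 UMIs and 2743 in the cells with none (35.1 and 1287 CPM), and Tmem213 had 0 and 106. In cluster 5, 1600014C10Rik had 13 and 1996 UMIs, log2 ratios of -6.39 there and -5.17 in cluster 4. Gm10036, whose row is named only by a gene model, went the other way, at 279 and 223 UMIs in cluster 4 and 451 and 70 in cluster 5 (377 and 105 CPM, and 344 and 30.3 CPM). Markers of other cell types also moved with the split in cluster 5: the mucous genes Muc5b, with 0 and 174 UMIs, and Tff1, with 1 and 496, had the lowest ratios there. The hemoglobin gene Hbb-bt, with 205 and 9, had the highest, and Hbb-bs had 1774 and 384. Their part in the result was not tested. The other 79 members lay between -0.03 and 0.43 in cluster 4 and between -0.05 and 0.61 in cluster 5, and the ribosomal protein share was 36.5 against 32.7% and 31.9 against 25.9%. Summed over cells of 1 cluster and 1 pool, those with 5 or more Rpl29 UMIs thus had few 1600014C10Rik UMIs and those with none had many. The 122 cells of cluster 4 and 77 of cluster 5 with 1 to 4 Rpl29 UMIs were not in this comparison, and the labels do not tie cells to mice.

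**Figure D5:**
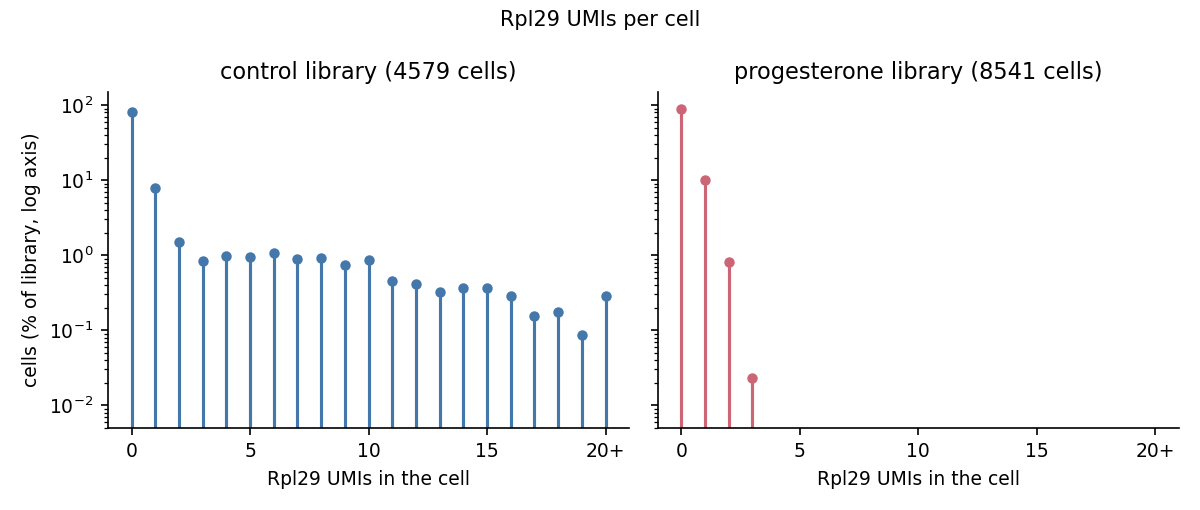
Percent of analysed cells (vertical axis, log scale) by number of Rpl29 UMIs in the cell (horizontal axis, 20 or more drawn together), control at left and progesterone at right. Control cells have a long tail of 5 or more UMIs (8.36% of cells), whereas no progesterone cell has more than 3.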

How the data were processed

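The deposited files hold counts of unique molecular identifiers per gene and cell barcode, made by the authors with Cell Ranger 3.0.2 on mm10, per the submitters' processing notes. Cells needed 200 genes or more and no more than 20% of UMIs from mitochondrial genes, and the cells with the highest Scrublet scores (0.8% per 1000 cells, 181 control and 680 progesterone) were removed as doublets. Both libraries were clustered together (scanpy 1.11.5, 2000 variable genes, 30 components, 15 neighbours, Leiden resolution 1, seed 1) without ribosomal protein genes, mitochondrial genes and Olfm4, and clusters were named from marker lists by thresholds adjusted after the clusters were seen; clusters with mixed markers stayed unnamed. Members and lists were chosen with earlier results of these data known. UMIs were summed per class and library. Shares have exact Clopper-Pearson 95% intervals, and fold changes have 0.5 UMI added. Genes named are the highest and lowest members per comparison, paralog pairs, stalk proteins and Rps6. Some named genes are not reported here. The ratio script was tested on simulated data.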

Additional observations from a re-analysis of the deposited data

How the results depend on the processing

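The difference in ribosomal protein share between libraries kept its direction under each alternative tried. With at most 10% mitochondrial UMIs it was 11.98 points in luminal-like, 7.67 in basal and 10.16 in suprabasal cells, and without doublet removal 9.86, 5.75 and 9.94. Leiden resolution 2 gave 8.98, 7.02 and 7.00, ribosomal protein genes and Olfm4 in the clustering 8.89, 7.16 and 3.86, and libraries clustered apart 1.58, 6.59 and 11.19. Leaving mitochondrial UMIs out of the total gave 9.71, 8.97 and 10.48, and the mean of per-cell shares 6.89, 6.83 and 8.62. Cells with at least 2000 UMIs gave 8.91, 8.19 and 8.85. An equal-weight mean over clusters with at least 50 cells of each library gave 5.70 in basal cells, in place of 8.02. The other classes had a single such cluster, so no mean was taken. These were cluster 11 in luminal-like cells, at 9.51, and cluster 0 in suprabasal cells, at 5.13. Cluster 11 was shallow, with medians of 1723 UMIs in control and 769 in progesterone. These last settings were chosen after seeing the data. The cause of these moves was not tested.

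The Olfm4 difference also kept its direction. In progesterone and control mucous-like cells it was -5.94 and -8.34 points with at most 10% mitochondrial UMIs, -4.99 and -7.58 without doublet removal, -5.62 and -7.64 at resolution 2, -5.25 and -8.31 with libraries clustered apart, -5.59 and -10.21 for cells with at least 3 Olfm4 UMIs, -5.05 and -6.65 without thinning, and -4.51 and -6.29 for cells chosen by at least 3 Muc5b UMIs. In progesterone alone it was -4.65 at 4000 UMIs, -5.47 without mitochondrial and mucous genes in the total and, as settings added after seeing the data, -4.99 without clusters 11 and 27, -3.72 in cluster 20 and -2.78 in cluster 21.

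Counts of members called depended on the threshold and scale. In basal cells 9 were higher without doublet removal, 41 when scaled without ribosomal protein and mitochondrial genes and 42 at a lower fold threshold, beside 11.6, 25.5 and 27.8% of all genes at those settings. In suprabasal cells 13 were higher at resolution 2, 55 under that scaling and 55 at the lower fold, beside 14.2, 47.8 and 47.4%. In mucous clusters only, 11 were higher, beside 20.1%, and log2 ratios for Rpl29, Rpl41, Rpsa and Rpl8 turned to 0.79, -0.26, -0.31 and -0.26. Under the scaling, Rpl31 in basal cells turned to 0.0238, Rpl8 and Rpl31 in suprabasal cells to 0.0435 and 0.0686, the ribosome assembly median there to 0.0259, and Rplp1 in the Olfm4 comparison to -0.0297. Members lower with Olfm4 in progesterone numbered 3 under the scaling, 46 at the lower fold and 0 without clusters 11 and 27, beside 3.94, 10.0 and 2.25% of all genes, and in control 72 at the lower fold, beside 31.8%. Members with a pool SD of at least 0.5 numbered 4 in the control and 0 in the progesterone library alone.

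Each group is 1 pooled library, so leaving out a replicate was not possible and treatment, pool and library cannot be told apart. No paired analysis was possible because each group has 1 library and no test was run. Intervals cover counting error over captured molecules and are far narrower than the spread between cells. Depth limits the smallest classes and the control Olfm4 comparison, which had 381 genes with enough UMIs.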
